A study of Mus musculus with 28 samples.

Results

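Messenger RNA levels of 9 genes of antigen presentation and the interferon response were followed in the brains of mice carrying a humanized NOVA1 protein and of their wild-type controls. The genes were B2m, H2-K1, H2-D1 and Tap1 of the major histocompatibility complex (MHC) class I pathway, and Irf7, Ifit1, Ifit3, Ifih1 and Isg15 of the interferon response. They were picked by gene symbol and chosen with the values of these same libraries, genotype differences included, already known, so their own differences are given as descriptions with no p-value. All 9 symbols were found among the 23038 genes of each table, and all 9 passed the filter on low counts in every comparison.

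NOVA1 is a neuronal RNA-binding protein that regulates alternative splicing. In Nova1hu/hu mice (hu/hu below) a CRISPR-edited Nova1 gene encodes valine in place of isoleucine at a single position, which is the human form, and Nova1wt/wt mice (wt/wt) carry the mouse form. Both genotypes share the C57BL/6J background and the human form is present in every cell that expresses Nova1. Bulk poly(A) RNA-seq covered the midbrain shortly before birth (E18.5, counted in embryonic days) in 6 hu/hu and 6 wt/wt libraries. After birth, at postnatal day 21 (P21), midbrain and cortex were each covered by 4 hu/hu and 4 wt/wt libraries, which makes 28 in all. The labels do not say whether each library is a different mouse, so errors and tests measure the spread between libraries. The authors describe samples of molecular experiments as biological replicates, and the RNA-seq as holding males and females in equal numbers of pairs. The labels do not give the sex of a library. In whole tissue, fewer cells of a type and less RNA per cell cannot be told apart.

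MHC class I molecules carry peptides from inside the cell to its surface. H2-K1 and H2-D1 encode classical heavy chains, B2m encodes the light chain that all of them share, and Tap1 encodes a subunit of the transporter that brings peptides into the endoplasmic reticulum. Interferons bind receptors that act through cytoplasmic kinases and transcription factors on interferon-stimulated genes, and class I genes are among the genes that interferon raises. Irf7 is a transcription factor that drives interferon production, Ifih1 encodes a cytosolic sensor of double-stranded RNA, Ifit1 and Ifit3 encode proteins that bind foreign RNA or assemble on it, and Isg15 encodes a ubiquitin-like modifier. In the healthy brain, microglia and endothelial cells are known as main sites of these transcripts.

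Library totals ran from 18550922 to 45134998 counts with a median of 30560080, and those of E18.5 (18550922 to 35047494) lay lower as a group though they overlapped the P21 totals. Labels matched markers of the tissue: the 4 midbrain markers Th, Slc6a3, En1 and En2 summed to 149 to 183 TPM in P21 midbrain against 10.4 to 20.7 in cortex, and the 4 cortex markers to 3.68 to 7.20 against 175 to 193. TPM is the level of a gene as its share of the library after division by gene length, scaled so that every library has the same sum, so it allows genes to be compared. Choroid plexus markers, led by Ttr, varied most between libraries, with summed levels of 42.6 to 3636 TPM at E18.5 and 10.5 to 3022 TPM in P21 midbrain, and in P21 midbrain both genotypes held low and high libraries. At E18.5 the low values were in hu/hu, which ran from 42.6 to 3636 TPM against 1399 to 2753 TPM in wt/wt. No pair of replicate libraries agreed within sampling noise.

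The starts of 6 of the genes are shown because the pattern that interferon-activated factors are known to bind can be read in 5 of them. Each run covers 250 bases before to 50 bases after the annotated start, 5′ to 3′ on the strand of the gene, from RefSeq on GRCm38.p6, and capitals mark matches to GAAANNGAAA on either strand, the core of the interferon-stimulated response element.

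Ifit1 (chr19:34640639-34640938, plus strand): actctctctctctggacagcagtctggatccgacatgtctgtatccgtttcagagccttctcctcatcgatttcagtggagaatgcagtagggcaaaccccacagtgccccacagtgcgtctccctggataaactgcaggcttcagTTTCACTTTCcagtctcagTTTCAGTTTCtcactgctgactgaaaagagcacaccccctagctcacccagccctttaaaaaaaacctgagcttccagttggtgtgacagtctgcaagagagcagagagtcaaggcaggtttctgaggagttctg
Ifit3 (chr19:34583279-34583578, plus strand): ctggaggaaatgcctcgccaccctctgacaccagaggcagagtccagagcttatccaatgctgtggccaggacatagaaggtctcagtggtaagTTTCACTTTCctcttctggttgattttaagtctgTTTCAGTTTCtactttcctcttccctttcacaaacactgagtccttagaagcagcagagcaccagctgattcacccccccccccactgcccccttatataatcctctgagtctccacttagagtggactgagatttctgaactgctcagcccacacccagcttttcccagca
Isg15 (chr4:156200769-156201068, minus strand): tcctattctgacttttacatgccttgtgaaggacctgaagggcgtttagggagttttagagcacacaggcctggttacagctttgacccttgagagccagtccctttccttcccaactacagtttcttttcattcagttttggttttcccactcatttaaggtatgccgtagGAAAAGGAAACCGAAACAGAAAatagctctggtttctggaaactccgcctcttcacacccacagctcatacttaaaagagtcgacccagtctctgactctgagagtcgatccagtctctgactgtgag
B2m (chr2:122147437-122147736, plus strand): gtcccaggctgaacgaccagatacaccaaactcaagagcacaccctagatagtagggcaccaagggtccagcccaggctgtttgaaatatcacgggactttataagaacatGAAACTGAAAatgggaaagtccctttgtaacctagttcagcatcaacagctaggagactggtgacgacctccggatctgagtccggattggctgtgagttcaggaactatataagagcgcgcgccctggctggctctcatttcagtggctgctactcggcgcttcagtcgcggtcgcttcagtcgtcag
Ifih1 (chr2:62646206-62646505, minus strand): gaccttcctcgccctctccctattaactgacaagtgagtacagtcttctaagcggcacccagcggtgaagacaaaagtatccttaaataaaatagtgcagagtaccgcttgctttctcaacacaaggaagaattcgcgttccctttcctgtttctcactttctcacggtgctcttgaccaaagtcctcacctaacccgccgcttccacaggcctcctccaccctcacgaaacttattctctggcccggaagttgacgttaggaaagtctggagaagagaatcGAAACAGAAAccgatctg
Irf7 (chr7:141266375-141266674, minus strand): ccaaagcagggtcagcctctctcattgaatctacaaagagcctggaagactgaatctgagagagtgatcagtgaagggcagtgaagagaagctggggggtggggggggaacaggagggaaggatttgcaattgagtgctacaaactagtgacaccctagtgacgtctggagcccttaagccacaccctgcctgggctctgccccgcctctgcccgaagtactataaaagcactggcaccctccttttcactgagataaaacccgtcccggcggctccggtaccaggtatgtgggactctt

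Ifit1 and Ifit3 each held 2 matches, Isg15 held 3 overlapping ones, B2m held 1 before its start and Ifih1 held 1 at 32 to 41 bases after its start. Irf7, printed for comparison, had none in this window, nor had H2-K1, H2-D1 or Tap1. The pattern was found in 3.44% of the 32851 promoters in the table, and by gene in 5 of the 9 members, in 16 of the 30 interferon-stimulated genes listed further on that had a promoter there and in 3.99% of all 27025 genes. TTCNNNGAA, the pattern of the interferon-gamma activated site, was in 0 of the 9 members and 9.55% of all genes, and GGGANTTCC, a form of the kappa B pattern, in 0 of 9 and 1.92%. These matches describe letters in a window and not binding. Each pattern is 1 exact string, so variants of a site are not counted. The windows of H2-K1 and H2-D1 hold ggggattcccc and cagtttcacttct, which resemble the kappa B and response element patterns without matching them. The remaining members lie together on chromosome 17 of GRCm38, H2-K1 at chr17:33996012-34000619 on the minus strand, Tap1 at chr17:34187556-34197225 and H2-D1 at chr17:35263094-35267497 on the plus strand. Values for all 9 genes rest on the exon lengths given with the counts, and whether these hold every exon of a gene was not checked.

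The class I genes were the most abundant members. B2m led at every age and region, with 103 ± 13.6 TPM (mean ± SD, n = 12) at E18.5, 189 ± 7.70 (n = 8) in midbrain at P21 and 214 ± 10.7 (n = 8) in cortex. H2-D1 came next at 72.0 ± 7.54, 93.7 ± 5.41 and 60.6 ± 5.76 TPM in the same order, followed by H2-K1 at 12.2 ± 2.97, 33.2 ± 4.01 and 21.5 ± 2.41 TPM. These 3 levels were apart in every P21 library, while at E18.5 the ranges of B2m and H2-D1 overlapped. Tap1 lay at 3.89 ± 0.689, 2.05 ± 0.308 and 2.07 ± 0.157 TPM. H2-K1 and H2-D1 are related paralogs with further relatives in the same cluster on chromosome 17. How reads were divided among them is uncertain, so the difference in level between them is less firm than the changes within each. The deposited length of H2-K1 is 746 bases and that of H2-D1 is 1697 bases.

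The interferon-response members were low in all tissues. Isg15 was the most abundant of them at E18.5 (7.47 ± 2.90 TPM, n = 12) and in P21 cortex (8.69 ± 1.59, n = 8), where its range overlapped those of Irf7 and of Ifit3 respectively. In P21 midbrain Ifit3 stood first of these at 12.4 ± 2.40 TPM (n = 8), and its range overlapped that of Isg15 (6.90 ± 1.70). Irf7 had 4.12 ± 1.94 TPM at E18.5, then 5.80 ± 1.63 in midbrain and 5.16 ± 1.53 in cortex at P21. Ifit1 had 1.34 ± 0.727, 3.44 ± 0.701 and 2.49 ± 0.266 TPM. Ifih1 was among the lowest at 1.59 ± 0.311, 1.87 ± 0.304 and 1.90 ± 0.237 TPM, and its range overlapped that of Tap1 in both P21 tissues. By mean TPM, Ifih1 ranked 14733 of 20375 genes above 0 at E18.5 and 14195 of 20061 in P21 midbrain, whereas B2m ranked 2064 and 978. The low levels set the precision: at E18.5 Ifit1 rested on 9 to 54 counts per library and Ifih1 on 60 to 150.

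**Figure D1:**
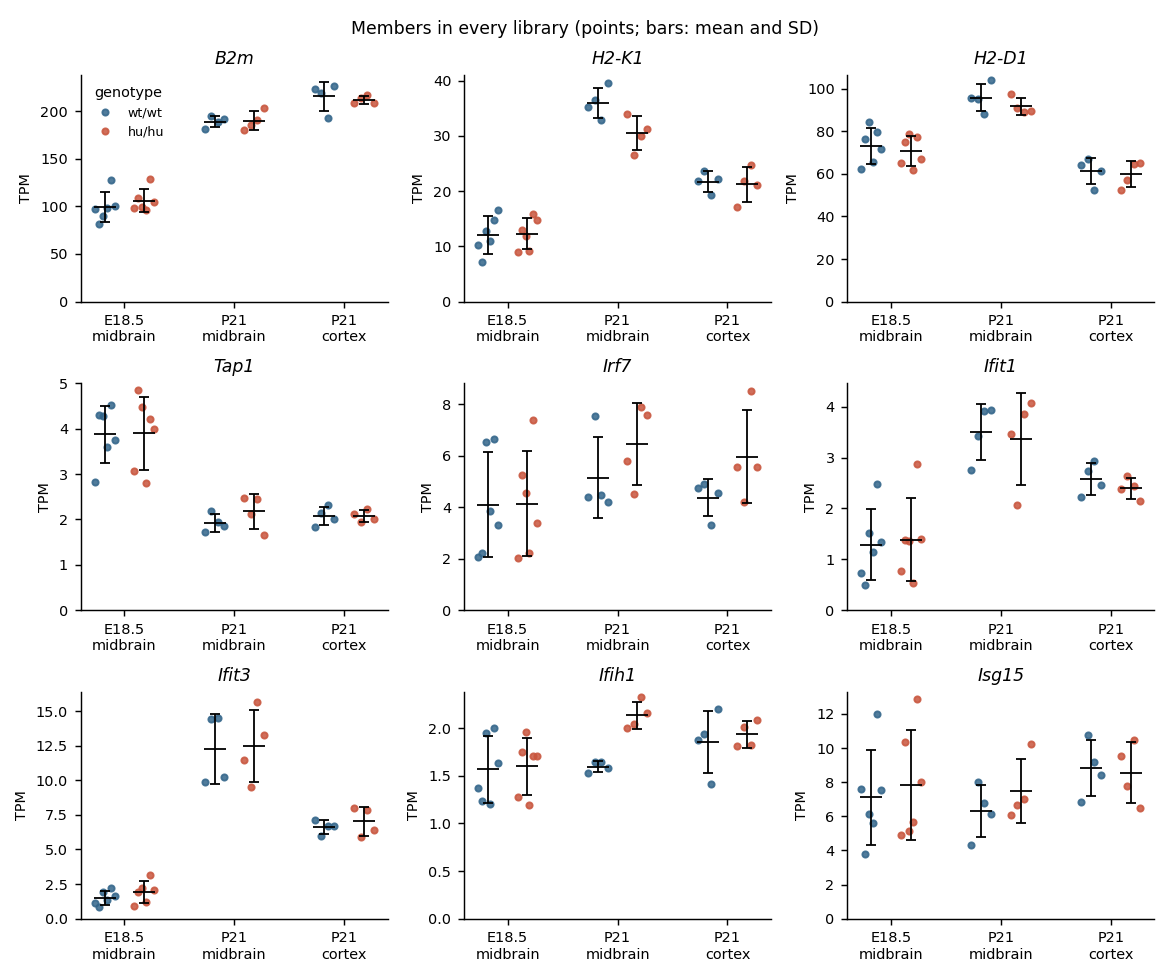
TPM of each member (linear axis from 0) in every library, by age and region, with wt/wt in blue and hu/hu in red; each point is 1 library and the bars give the mean and SD of a group. The P21 midbrain points of H2-K1, H2-D1 and Ifit3 lie above all cortex points, and only for Ifih1 in P21 midbrain do the genotypes not overlap.

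At E18.5 the library numbered 5 had the highest level of 5 members (B2m, Irf7, Ifit1, Ifit3 and Isg15) in both genotypes. Ifit1 was at 0.767, 1.37, 1.36, 0.539, 2.88 and 1.40 TPM in hu/hu libraries 1 to 6, and at 0.726, 0.488, 1.53, 1.15, 2.48 and 1.33 TPM in wt/wt libraries 1 to 6. Isg15 was at 4.91, 10.4, 5.14, 5.65, 12.9 and 8.0 TPM in the hu/hu libraries and at 7.60, 3.78, 6.13, 5.62, 12 and 7.52 TPM in the wt/wt libraries. Library 5 thus stood highest in both genotypes, and most clearly for Ifit1. Values without both number 5 libraries are given beside the age comparison.

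The comparison of ages asked how the members differed between E18.5 and P21 midbrain, with both genotypes weighted equally. Age and any sequencing batch cannot be told apart in it. Of the 9 members, 7 were called higher and 1 lower at P21, 4 of them higher by at least 2-fold. Among all 16330 genes tested, 42.3% were called higher and 43.1% lower (edgeR's quasi-likelihood test, p under 0.05 and Benjamini-Hochberg adjusted p under 0.1), and 15.9% were called higher and 14.7% lower with a change of at least 2-fold. Fold changes here are relative to scaling factors that assume most genes do not change (TMM, median of all genes -0.015 on the log2 scale). With library totals alone that median moved by -0.155, and the direction of every member but Isg15 was the same. How many of all genes had age or region groups without overlap was not counted.

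Among class I genes, B2m ran from 81.9 to 128 TPM with a median of 99.0 at E18.5, and from 180 to 204 with a median of 189 in P21 midbrain. The age groups did not overlap, and the log2 fold change of B2m was 1.09 (SE 0.063, 95% interval 0.958 to 1.22). H2-K1 ran from 7.09 to 16.5 TPM (median 12.4) at E18.5 and from 26.6 to 39.5 TPM (median 33.4) at P21, again without overlap, a log2 fold change of 1.63 (SE 0.114). H2-D1 differed less, with 61.6 to 84.4 TPM (median 73.3) against 88.1 to 104 TPM (median 93.1) and a log2 fold change of 0.59 (SE 0.048). Tap1 went the other way. Its 12 E18.5 libraries had 2.80 to 4.85 TPM (median 4.11) and its 8 P21 libraries 1.66 to 2.46 (median 2.04), with no overlap and a log2 fold change of -0.72 (SE 0.108).

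Ifit3 had the largest age difference of the 9. It ran from 0.859 to 3.17 TPM (median 1.76) at E18.5 and from 9.55 to 15.7 TPM (median 12.4) in P21 midbrain, a log2 fold change of 3.04 (SE 0.159, 95% interval 2.71 to 3.36). Ifit1, its neighbour on chromosome 19, ran from 0.488 to 2.88 TPM (median 1.35) and from 2.06 to 4.08 TPM (median 3.66), so its age groups overlapped, with a log2 fold change of 1.55 (SE 0.228). Both lie within a cluster of related Ifit genes, and Ifit3 has a near-identical copy, Ifit3b, so reads may have been divided between those copies. Irf7 ran from 2.01 to 7.38 TPM (median 3.62) at E18.5 and from 4.22 to 7.90 TPM (median 5.14) at P21, a log2 fold change of 0.68 (SE 0.221) between overlapping groups. Ifih1 had 1.20 to 2.0 TPM (median 1.67) against 1.53 to 2.33 TPM (median 1.82), which overlapped too, and a log2 fold change of 0.42 (SE 0.098). Isg15 had no clear direction. Its groups of 3.78 to 12.9 and 4.32 to 10.2 TPM overlapped, the log2 fold change was 0.08 (SE 0.198), -0.07 with library totals alone, and the ratio of mean TPM was 0.924. Without both number 5 libraries of E18.5, an alternative chosen after the data were seen, the log2 fold changes were 1.85 for Ifit1, 0.89 for Irf7 and 0.28 for Isg15, and those of the other 6 members moved by less than 0.2.

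The comparison of regions set P21 midbrain against P21 cortex. Of the 9 members 4 were called higher and 2 lower in midbrain, and 0 by 2-fold or more, where 37.9% of 16345 genes were called higher and 37.6% lower, and 7.82% and 7.59% with at least 2-fold. The heavy chains were higher in midbrain without overlap: H2-K1 had 26.6 to 39.5 TPM against 17.1 to 24.8 in cortex (log2 fold change 0.55, SE 0.077), and H2-D1 88.1 to 104 against 52.6 to 67.0 TPM (0.55, SE 0.049). B2m, their partner chain, was lower in midbrain, with 180 to 204 against 193 to 227 TPM, overlapping groups and a log2 fold change of -0.25 (SE 0.036). Ifit3 was higher in midbrain, at 9.55 to 15.7 against 5.91 to 7.99 TPM with no overlap (0.78, SE 0.112), and Ifit1 had 2.06 to 4.08 against 2.14 to 2.94 TPM (0.39, SE 0.130). Isg15 lay at 4.32 to 10.2 against 6.49 to 10.8 TPM (-0.41, SE 0.151). For Tap1 (-0.10, SE 0.102), Irf7 (0.10, SE 0.158) and Ifih1 (-0.11, SE 0.081) the regions overlapped and the 95% intervals held 0.

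**Figure D2:**
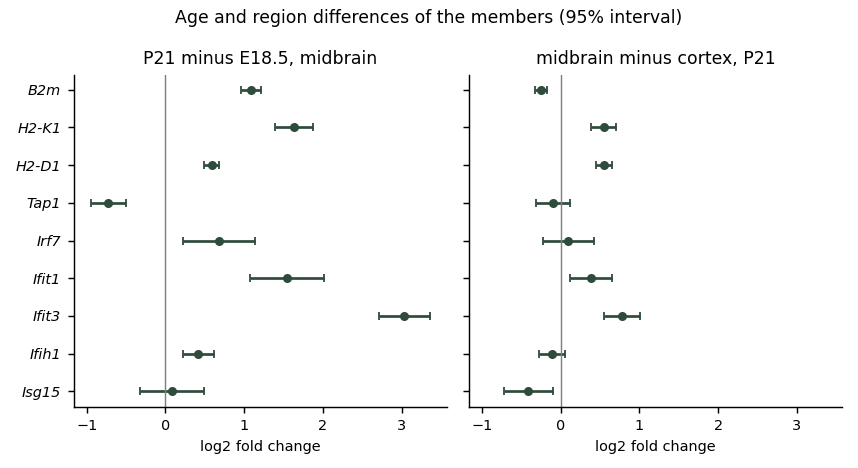
Log2 fold change of each member (x axis, the same range in both panels) between P21 and E18.5 midbrain (left) and between midbrain and cortex at P21 (right), with points for edgeR estimates and bars for 95% intervals. Tap1 alone lies wholly below 0 on the left, Ifit3 is farthest to the right at 3.04, and B2m and Isg15 lie below 0 on the right while H2-K1 and H2-D1 lie above it.

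Other genes of the pathway, in lists that leave the members out, were counted for age in the same way. Among all 16330 genes tested, 42.3% were called higher and 43.1% lower at P21. Of 20 genes of class I antigen presentation, 12 were higher and 4 lower at P21 (median log2 fold change 0.31). Tap2, the partner of Tap1 in the peptide transporter, was higher (2.38, SE 0.14) while Tap1 was lower. The nonclassical class I genes H2-T23 (1.87, SE 0.12), H2-M3 (1.78, SE 0.12) and H2-T22 (1.20, SE 0.15) were also higher. Those that were lower were H2-Q7 (-2.22, SE 0.28) and H2-Q6 (-1.48, SE 0.38), whose reads may be shared with their relatives, and Psme1 (-1.09, SE 0.06) and Psme2 (-0.80, SE 0.05), which encode the interferon-inducible activator of the proteasome.

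Of 40 further interferon-stimulated genes 38 were tested, and 26 were higher and 3 lower at P21, with a median of 0.66 beside -0.015 for all genes. Ifit3b (3.99, SE 0.18), the copy of Ifit3, led them, followed by Mx2 (2.36, SE 0.17), an antiviral GTPase, Sp100 (1.86, SE 0.23), a nuclear body protein, and Ifi27 (1.81, SE 0.14). Oas3 (-2.32, SE 0.24), which makes the activator of RNase L, was lower, as were Ifitm2 (-1.34, SE 0.08) and Ifit2 (-0.20, SE 0.07). Without both number 5 libraries 29 of these genes were higher and 3 lower.

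The receptor and signalling genes went in both directions, as all genes did, with 5 of 15 higher, 8 lower and a median of -0.06. The transcription factor gene Stat3 (0.65, SE 0.06) and the receptor chains Ifngr1 (0.46, SE 0.06) and Ifnar2 (0.33, SE 0.05) were higher. The feedback inhibitors Socs3 (-0.99, SE 0.14) and Socs1 (-0.81, SE 0.20), the kinase Jak2 (-0.83, SE 0.04) and the receptor chain Ifnar1 (-0.54, SE 0.03) were lower.

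Of 14 nucleic acid sensors and adaptors tested 8 were higher, among them the endosomal receptors Tlr3 (2.03, SE 0.08), Tlr9 (1.77, SE 0.21) and Tlr7 (1.22, SE 0.20) and the adaptor Tmem173, known as STING (1.23, SE 0.15). Mb21d1, which encodes the DNA sensor cGAS, was lower (-0.33, SE 0.16). Of 7 other interferon regulatory factors 6 were higher and 0 lower, with Irf5 (2.06, SE 0.11), Irf2 (1.16, SE 0.06), Irf1 (0.84, SE 0.13) and Irf8 (0.84, SE 0.15) first. The 8 interferon genes looked at were all too low to be tested. Ifnb1, Ifna1 and Il28b were at 0 counts in all 28 libraries, and no interferon gene exceeded 5 counts in a library.

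Between regions, where 37.9% of all genes were called higher and 37.6% lower, the lists were counted in the same way. Of 18 class I genes tested 8 were higher and 2 lower in midbrain (median 0.17). Erap1 (0.58, SE 0.06), which trims peptides, H2-T22 (0.50, SE 0.15), H2-M3 (0.48, SE 0.10) and the chaperone gene Canx (0.46, SE 0.03) were highest, and the immunoproteasome subunits Psmb9 (-0.60, SE 0.20) and Psmb10 (-0.19, SE 0.05) were lower. Of 37 interferon-stimulated genes 15 were higher, a share near that of all genes, and 4 lower (median 0.17), and 11 to 17 were higher when any 1 library was left out. Ifit3b (0.91, SE 0.12), Mx2 (0.84, SE 0.09), Rsad2 (0.62, SE 0.13) and Usp18 (0.62, SE 0.18), which removes Isg15 from proteins, had the highest values. Herc6 (-0.80, SE 0.11), a ligase that attaches Isg15, was lower, as were Ifi27l2a (-0.34, SE 0.15), Ifitm2 (-0.29, SE 0.09) and Ifi27 (-0.20, SE 0.07).

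Of 15 receptor and signalling genes 5 were higher and 3 lower in midbrain (median 0.09). Ifnlr1 (1.76, SE 0.31), a chain of the interferon lambda receptor, Stat3 (0.47, SE 0.04) and Ifnar2 (0.18, SE 0.05) were higher, and Socs3 (-0.87, SE 0.17), Ifngr2 (-0.34, SE 0.03) and the kinase Tyk2 (-0.21, SE 0.05) were lower. Of 14 sensors and adaptors 4 were higher and 2 lower (median 0.003). Mavs (0.92, SE 0.06), the adaptor through which Ifih1 signals, was highest, ahead of Tlr3 (0.48, SE 0.07), the RNA sensor Ddx58 (0.29, SE 0.08) and the kinase Tbk1 (0.22, SE 0.04), whereas Tlr7 (-0.49, SE 0.11) and Tmem173 (-0.45, SE 0.11) were lower. Of 7 other regulatory factors Irf3 was higher (0.26, SE 0.05), and Irf8 (-0.76, SE 0.09), a factor of microglia, Irf2 (-0.49, SE 0.05) and Irf1 (-0.38, SE 0.10) were lower.

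**Figure D3:**
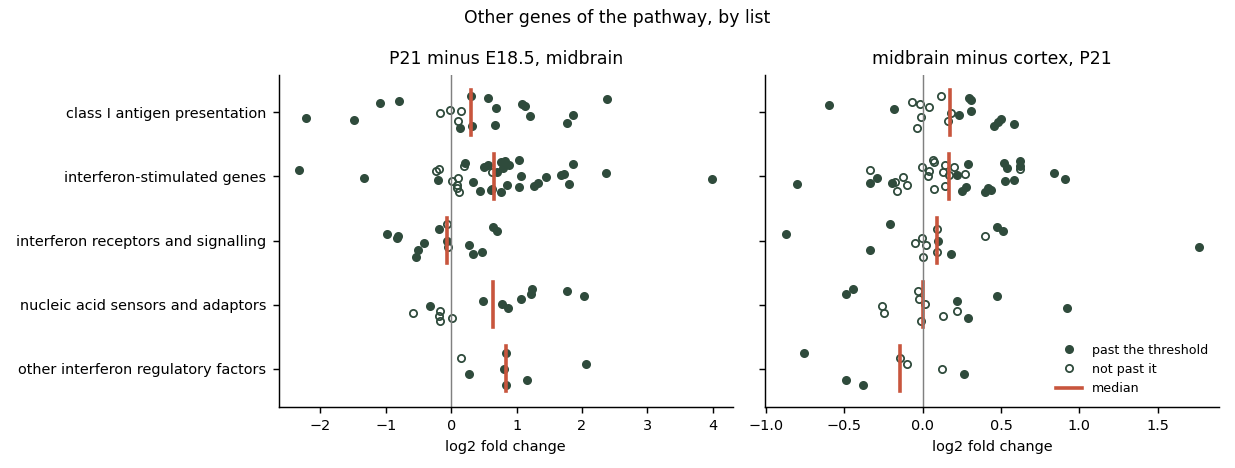
Log2 fold change (x axis, a range of its own in each panel) of the other genes in 5 lists for age (left) and region (right); each circle is a gene, filled where it passed the threshold, and the red bar is the median of the list. For age the median of interferon-stimulated genes is at 0.66 and that of receptors and signalling at -0.06, and for region all 5 medians lie between -0.14 and 0.17.

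Cell type markers moved with age and region as well, where 42.3% of all genes were called higher and 43.1% lower with age. In midbrain against cortex those shares were 37.9% and 37.6%. The 10 microglia markers summed to 193 to 277 TPM at E18.5, then 604 to 662 in midbrain and 746 to 901 in cortex at P21, and 10 of 10 were called higher with age and 10 of 10 lower in midbrain than in cortex. B2m followed the same order of tissues as these markers, and so did the sum of the neuron markers given below. H2-K1, H2-D1 and Ifit3 were highest in P21 midbrain, as were the sums of the oligodendrocyte and astrocyte markers. The 7 endothelial markers summed to 141 to 197, 292 to 312 and 261 to 315 TPM, with 4 called higher and 2 lower with age. The 4 markers of border macrophages summed to 39.9 to 69.8, 14.1 to 20.6 and 13.3 to 18.1 TPM, and the 3 meningeal fibroblast markers to 153 to 245, 67.8 to 92.4 and 51.6 to 78.1 TPM, with 3 of 4 and 3 of 3 lower with age. The 4 monocyte and neutrophil markers summed to 2.23 to 13.3, 2.97 to 16.6 and 2.05 to 4.54 TPM, and the 6 lymphocyte markers to 0.532 to 2.01, 0.697 to 2.43 and 8.22 to 10.6 TPM. Only 2 of these 6 had enough counts to be tested in midbrain against cortex, with log2 fold changes of -4.92 and -0.75. Cd3d was at 0 counts in every P21 cortex hu/hu library, so the lymphocyte sum does not stand for all 6 markers. The 3 oligodendrocyte markers went from 54.7 to 75.7 TPM at E18.5 to 17191 to 19482 in midbrain and 4895 to 5532 in cortex at P21, the 3 astrocyte markers from 278 to 390 to 448 to 478 and 284 to 306, and the 3 neuron markers from 591 to 675 to 2685 to 2961 and 3409 to 3689 TPM. The part of any of these cell types in the members' age and region differences was not tested.

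The comparison of genotypes, made within each age and region, asked whether the humanized NOVA1 goes with other levels of the members. No member was called, and the same was true of the whole table: by edgeR 0% of 15540 genes were called at E18.5, 0% of 15972 in midbrain at P21 and 0% of 15767 in cortex, with 201, 426 and 450 genes at an unadjusted p under 0.05. DESeq2 called 0, 1 and 0 genes, and edgeR with the library number as a block called 0, 4 and 0, none of them a member. With that block, which the reported fit leaves out, edgeR had 813, 735 and 897 genes at an unadjusted p under 0.05. Since the members were chosen with these values known, nothing is read from the absence of called members.

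Ifih1 in P21 midbrain was the single case of 27, 9 members in 3 tissues, in which the genotypes did not overlap. The share of all genes without such overlap was not counted, so nothing is read from this count. Ifih1 had 2.0, 2.05, 2.33 and 2.16 TPM (191, 239, 201 and 208 counts) in hu/hu libraries 1 to 4. In the wt/wt libraries it had 1.53, 1.64, 1.64 and 1.58 TPM (100, 140, 127 and 168 counts). All 4 hu/hu libraries were thus above all 4 wt/wt ones, by 0.42 on the log2 scale (SE 0.107, 95% interval 0.19 to 0.65). Leaving out any of these 8 libraries gave 0.37 to 0.45. At E18.5 the genotypes overlapped, with 1.20, 1.71 and 1.96 TPM as the lowest, median and highest hu/hu value and 1.21, 1.51 and 2.0 as those of wt/wt, a log2 fold change of 0.02 (SE 0.150). In P21 cortex the hu/hu libraries had 1.81, 2.02, 1.82 and 2.09 TPM and the wt/wt libraries 1.88, 1.94, 1.41 and 2.20 TPM, a log2 fold change of 0.07 (SE 0.127). The genotype change of Ifih1 in P21 midbrain exceeded that at E18.5 by 0.40 (SE 0.196, 95% interval -0.01 to 0.81) and that in P21 cortex by 0.36 (SE 0.162, 95% interval 0.02 to 0.69). These intervals are descriptions too, and neither interaction term was called for any gene (0% of 16330 and 0% of 16345 genes by edgeR, with 303 and 373 at an unadjusted p under 0.05).

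The other interferon genes did not share that separation. In P21 midbrain Irf7 had 5.78, 4.51, 7.90 and 7.59 TPM in hu/hu and 4.39, 7.53, 4.46 and 4.22 TPM in wt/wt libraries 1 to 4, a log2 fold change of 0.32 (SE 0.211), with wt/wt library 2 far above the other 3. Without that library the fold change was 0.57. Ifit3 had 11.4, 9.55, 15.7 and 13.3 against 9.87, 14.4, 14.5 and 10.2 TPM, a log2 fold change of 0.02 (SE 0.160), and Ifit1 3.47, 2.06, 3.86 and 4.08 against 2.75, 3.42, 3.92 and 3.93 TPM (-0.07, SE 0.198). Isg15 had 6.05, 6.64, 7.04 and 10.2 against 4.32, 8.0, 6.78 and 6.12 TPM (0.24, SE 0.222), and the fold change was 0.06 without hu/hu library 4. The signs of Ifit3 and Ifit1 turned as well when 1 library was left out, with ranges of -0.11 to 0.13 and -0.18 to 0.11. All 4 pairs of groups overlapped, and all 4 intervals held 0. In P21 cortex Irf7 had 5.54, 4.21, 8.49 and 5.57 TPM in hu/hu and 4.73, 4.88, 3.32 and 4.54 TPM in wt/wt libraries (0.45, SE 0.194, 95% interval 0.04 to 0.87), and 0.23 without hu/hu library 3.

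Among class I genes, H2-K1 in P21 midbrain was the one with an interval away from 0. Its hu/hu libraries had 34.0, 26.6, 30.0 and 31.2 TPM and its wt/wt libraries 35.2, 36.4, 32.8 and 39.5 TPM, lower in hu/hu in 4 of 4 same-numbered pairs though the ranges overlapped, with a log2 fold change of -0.24 (SE 0.097, 95% interval -0.45 to -0.03). It was -0.03 (SE 0.120) in P21 cortex and 0.02 (SE 0.193) at E18.5. B2m (0.01, SE 0.051), H2-D1 (-0.06, SE 0.053) and Tap1 (0.18, SE 0.162) overlapped between genotypes in P21 midbrain. At E18.5 and in P21 cortex the log2 fold changes of B2m, H2-D1 and Tap1 lay between -0.06 and 0.09, and at E18.5 the largest value of all members was 0.35 (SE 0.280) for Ifit3, which was 0.16 without hu/hu library 5.

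**Figure D4:**
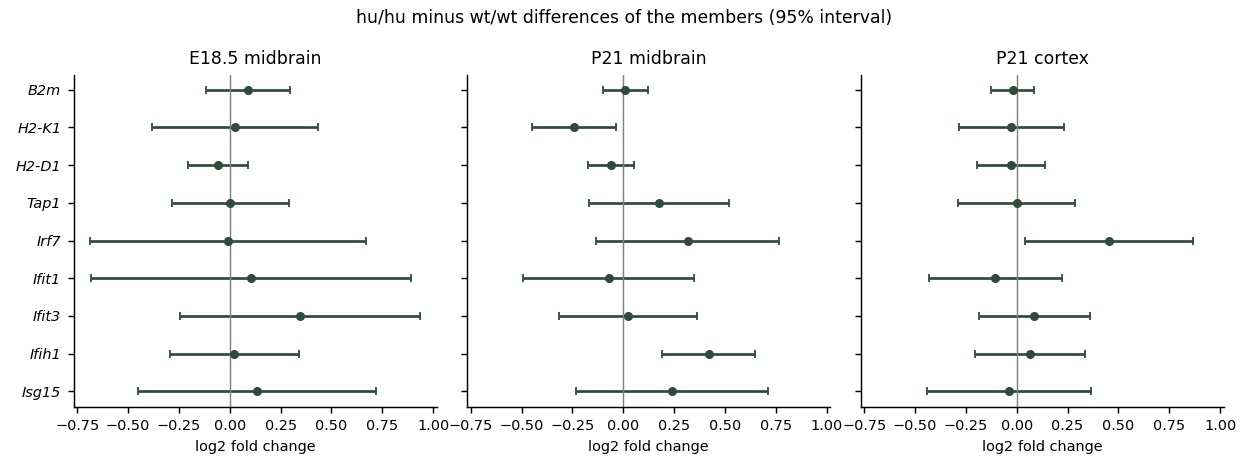
Log2 fold change of each member between hu/hu and wt/wt (x axis, the same range in all 3 panels) at E18.5 and, at P21, in midbrain and in cortex, with points for edgeR estimates and bars for 95% intervals. In P21 midbrain the bar of Ifih1 (0.19 to 0.65) lies above 0 and that of H2-K1 (-0.45 to -0.03) below it, and in cortex that of Irf7 (0.04 to 0.87) lies above 0.

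No gene of the other lists was called between genotypes in any tissue. The list genes with the smallest p were Il10rb (log2 fold change -0.28, SE 0.091), a receptor chain for interferon lambda, and Rsad2 (0.43, SE 0.159), an antiviral enzyme, in P21 midbrain, Sp100 (0.39, SE 0.133) and Bst2 (0.23, SE 0.101) in P21 cortex, and H2-Q6 (-0.59, SE 0.301) and Mb21d1 (0.39, SE 0.214) at E18.5. The lowest adjusted p among these 6, by edgeR's quasi-likelihood test, was 0.9999. Medians of the interferon-stimulated list were -0.0007 at E18.5, 0.06 for midbrain at P21 and 0.07 for cortex. Beside these results, microglia markers summed to 604 to 662 TPM in hu/hu and 618 to 633 TPM in wt/wt P21 midbrain and endothelial markers to 295 to 312 and 292 to 310 TPM. In P21 cortex 9 of 10 microglia markers and 7 of 7 endothelial markers had a fold change above 0 in hu/hu, with sums of 813 to 901 against 746 to 852 TPM for microglia and 277 to 315 against 261 to 297 TPM for endothelium. In P21 midbrain 6 of 10 and 3 of 7 were above 0. The share of all genes above 0 was not counted in either tissue. The ranges of both marker sums overlapped between the genotypes in both tissues, none of these markers was called, and their part in the values of Irf7, Sp100 and Bst2 in cortex was not tested.

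Whether Ifih1 moved with the other interferon genes was asked apart from genotype, with the deviation of each library from the mean of its genotype on the log2 scale of counts scaled to library size (log2 CPM). At E18.5 (n = 12) Pearson's r of Ifih1 was 0.82 with Ifit3 (rho 0.78), 0.79 with Ifit1 (rho 0.76), 0.78 with Irf7 (rho 0.65) and 0.55 with Isg15 (rho 0.46). By a two-sided permutation test within genotype, with Benjamini-Hochberg adjustment over 12 relations (4 genes in 3 tissues), the adjusted p of r was 0.0211, 0.0256, 0.0331 and 0.188 in that order. The raw p was 0.00176, 0.00426, 0.00827 and 0.0806. For rho the raw p was 0.00593, 0.00969, 0.034 and 0.152 and the adjusted p 0.0581, 0.0581, 0.104 and 0.229 in the permutation test, so Ifit3, Ifit1 and Irf7 passed 0.05 by r and no gene did by rho. Leaving out any 1 library gave r of 0.72 to 0.90 for those 3 genes and 0.41 to 0.75 for Isg15, and within library numbers r was 0.67, 0.64, 0.67 and 0.84 for Ifit3, Ifit1, Irf7 and Isg15. Without the 2 libraries farthest from the median of Ifih1, r was 0.74, 0.64, 0.69 and 0.37. The members were chosen with the values of these libraries known, and the share of all genes with such an r was not counted. Kifc2, a gene outside the lists, had an r of 0.93 with Ifih1 at E18.5. The p-values of all 3 tissues are thus no measure of a link particular to interferon genes.

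The 12 values of Ifih1 at E18.5 left a gap, with 5 libraries at -0.13 or below and 7 at 0.09 or above. Libraries 1 and 4 of both genotypes and wt/wt library 2 were the low ones. The split was placed at the widest gap in these same values, so the counts that follow restate the relations above. Such counts were not made for all genes. Ifit3 was below its genotype mean in 5 of the 5 low libraries and above it in 7 of the 7 others. Ifit1 was so in 4 of 5 and 7 of 7, and Irf7 and Isg15 each in 4 of 5 and 5 of 7. Among the 7 alone, where Ifih1 has a smaller range, r was 0.40 with Irf7, 0.18 with Ifit1, 0.16 with Ifit3 and -0.16 with Isg15. The deviation of Ifih1 also had a correlation of 0.56 with that of the log2 library total over the 12 libraries, and its part in these relations was not tested.

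In P21 midbrain (n = 8) Pearson's r of Ifih1 was 0.85 with Ifit3 (rho 0.83), 0.66 with Irf7 (rho 0.62), 0.55 with Isg15 (rho 0.67) and 0.49 with Ifit1 (rho 0.52). By an exact two-sided permutation test within genotype, the p for Ifit3 was 0.0191, and 0.0573 after adjustment over the same 12 relations, and for rho these values were 0.0347 and 0.104. For the other 3 genes the adjusted p of r in the same exact test was 0.188 to 0.427, and that of rho 0.229 to 0.325, so no relation in P21 midbrain passed 0.05 after adjustment. Without the 2 libraries farthest from the median of Ifih1, r was 0.71, 0.58, 0.90 and 0.10 for Ifit3, Irf7, Isg15 and Ifit1.

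In P21 cortex (n = 8) the sign was mixed: r was 0.21 with Irf7 (rho 0), -0.58 with Ifit1 (rho -0.45), -0.38 with Ifit3 (rho -0.60) and -0.35 with Isg15 (rho -0.45). The exact permutation test gave adjusted p of 0.287 to 0.549 for r and of 0.229 to 1 for rho. Without the 2 farthest libraries these r were -0.69, -0.10, -0.92 and -0.62. Same-numbered libraries of the 2 genotypes share variation, so they are not fully independent, and the p-values of all 3 tissues, E18.5 included, may be too small. Within library numbers the cortex r changed to 0.79 with Irf7, 0.64 with Ifit3 and 0.24 with Isg15, and was -0.56 with Ifit1. Single libraries turned the cortex value for Irf7, which was -0.56 without wt/wt library 3 and 0.59 without hu/hu library 3. For comparison, the median r among Irf7, Ifit1, Ifit3 and Isg15 themselves was 0.84 at E18.5, then 0.63 for midbrain and 0.34 for cortex at P21 over 6 pairs of genes each, and the median r between Ifih1 and those 4 was 0.78, 0.61 and -0.36.

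**Figure D5:**
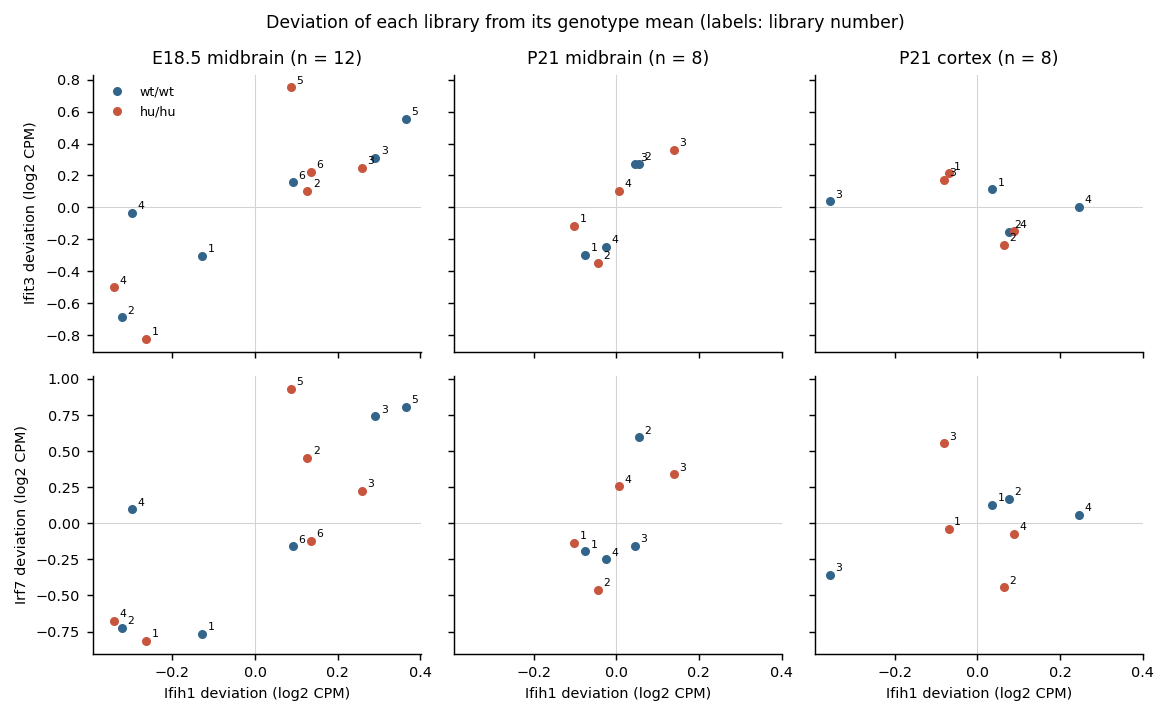
Deviation of each library from its genotype mean (log2 CPM) for Ifih1 (x axis) against Ifit3 (top row) and Irf7 (bottom row), with wt/wt in blue, hu/hu in red and library numbers beside the points. Ifit3 has an r of 0.82 with Ifih1 at E18.5, where no library lies between -0.13 and 0.09 of Ifih1, an r of 0.85 in P21 midbrain and an r of -0.38 in P21 cortex.

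The genes whose deviations were most like those of a member were found among 16804 genes by Pearson's r over the 28 libraries, as a description, since the libraries of 1 number share variation and depth. For Irf7 they were Oasl2 (0.90), Ifit3 (0.86), Ifitm3 (0.84), Grn (0.81) and Bst2 (0.79), and 4 of these 5 are interferon-stimulated genes of the lists or members. For B2m they were Isg15 (0.80), Wnt9a (0.78), Ifitm3 (0.78), Fcer1g (0.77) and Ifi27l1 (0.76). The 5 for Ifih1 held no gene of the lists: Kifc2 (0.86), AI464131 (0.86), Trmt1 (0.85), 9130221H12Rik (0.84) and Sgsm2 (0.84). Their likeness differed by tissue, with r of 0.87 to 0.93 at E18.5, 0.74 to 0.94 in P21 cortex and 0.22 (Kifc2) to 0.90 (Sgsm2) in P21 midbrain. Irf7 came at rank 482 in the order for Ifih1 (0.67), Ifit3 at 504 (0.66), Ifit1 at 696 (0.63) and Isg15 at 2998 (0.39), while Ifih1 came at rank 110 in the order for Irf7.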

How the data were processed

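The authors made poly(A) libraries, mapped paired-end reads to mm10 (OLego) and summed them over gene models (Quantas). For each library they deposited expected counts, exon lengths and RPKM values, and the RPKM follow from the counts, lengths and library totals (largest relative difference 2.27e-13), so RPKM were not used further. The annotation version and the use of strand are not given in the sources used here. Groups come from the sample titles. The members and lists were chosen with earlier results of these data known.

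Deposited expected counts were rounded for the tests (751 to 2715 genes per library were not whole), and TPM were computed from the unrounded counts. Groups were compared with edgeR 4.0.16 (quasi-likelihood test, TMM factors, filterByExpr) in R 4.3.3 over all genes. The threshold was 0.05 for p and 0.1 for p after Benjamini-Hochberg adjustment. Log2 CPM used a prior count of 2. Only libraries of the ages and regions compared entered a fit. The SE is the log2 fold change over the root of its F statistic. From the lists, the text names up to 4 called genes of each list by size in each direction for age and region, for each genotype comparison the 2 with the smallest p over all lists, and for B2m, Irf7 and Ifih1 the 5 genes with the highest correlation. A gene that the rule would name is not reported here. In simulated counts with 200 changed genes the test found 88% of 1.5-fold changes at E18.5. For P21 this share was 85.5% (midbrain) and 93.5% (cortex), and it was 98% for age and 97% for region. False calls numbered 16 at E18.5, 31 for midbrain and 26 for cortex at P21, 16 for age and 22 for region. The changed genes were drawn only from those above a minimum mean count, and these shares were not split by count. They are thus no rate for all genes tested, nor for members with few counts, such as Ifit1, Ifit3 and Isg15 at E18.5. Of 23038 Entrez identifiers, 22959 matched RefSeq, and all 9 members had a promoter there.

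Same-numbered hu/hu and wt/wt libraries deviated together, with correlations of 0.171 to 0.391 at E18.5. At P21 these were 0.201 to 0.235 in midbrain and 0.170 to 0.246 in cortex. The numbers may thus pair the genotypes, though the labels state no pairing and differently numbered libraries were not set beside them. Genotype SEs and intervals come from the fit without library numbers. Same-numbered midbrain and cortex libraries did not deviate together (-0.201 to -0.102). Alternatives were RLE factors, library totals, DESeq2 1.42.0, a stricter adjusted p (0.05), the replicate number as a block, each library left out in turn, and a count filter that was absent or asked for 10 counts throughout.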

Additional observations from a re-analysis of the deposited data

Results flagged for a closer look

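Of 54 groups of values (9 members in 6 groups, in counts per library scaled to TPM), 2 held a library whose gap to its nearest neighbour exceeded Dixon's 95% critical value for its range, where chance flags about 1 in 20 groups. Irf7 was at 7.53 TPM in P21 midbrain wt/wt library 2, with the nearest of the other 3 at 4.46 TPM (ratio of gap to range 0.925). Ifit1 was at 2.88 TPM in E18.5 midbrain hu/hu library 5, with the nearest of the other 5 at 1.40 TPM (ratio 0.632). The same-numbered wt/wt library of E18.5 was the highest of its own group as well, at 2.48 TPM.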

How the results depend on the processing

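The numbers of genes called between genotypes in P21 midbrain were 0 in the reported fit, 1 with DESeq2 and 4 with the replicate block, and no member was among them. The block changed no other call count by over 1.5 times. With at least 10 counts in every library, 2 class I genes were lower with age instead of 4. E18.5 and P21 libraries share numbers but no pairing, and the age fit with the block weighs libraries 1 to 4 only, where Ifit1 was 1.99, Irf7 0.92 and Isg15 0.36 on the log2 scale. Of 71 alternative values of the members for age, 15 moved by over 1 SE and 1 had another sign (Isg15). Of 188 for genotype 0 moved and 4 had another sign, and of 72 for region 0 moved. Leaving out 1 library gave 0 genes called in each genotype comparison, 13829 to 13956 for age and 12176 to 12296 for region. Depth limits Ifit1 and Ifit3 at E18.5 most, where single libraries held 9 to 54 and 11 to 46 counts.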
